A study of Mus musculus with 36 samples.

Results

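The genes described here encode the receptors, the synthesis, the transport and the breakdown of GABA, together with proteins that anchor or traffic its receptors and cotransporters that set chloride levels. Members were found by gene name in the deposited count table, and 34 of its 24781 genes belong to the group. They are 13 GABA-A receptor subunits, 3 rho subunits, 2 GABA-B subunits, 1 receptor scaffold, 3 proteins of the GABARAP family, 3 synthesis enzymes, 2 breakdown enzymes, 5 transporters and 2 chloride cotransporters. Some other genes of these families were not analysed here.

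GABA is made from glutamate by glutamate decarboxylases or from putrescine by an aldehyde dehydrogenase, and is broken down through succinic semialdehyde to succinate. GABA-A receptors are chloride channels assembled from several subunits, so that the effect of opening them depends on the chloride gradient that cation-chloride cotransporters maintain, and GABA-B receptors signal through G proteins. The system is best known from inhibitory neurons, and some of its receptors and enzymes have also been described in immune cells.

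The study asked how GABA, which B cells can produce, bears on macrophages and CD8+ T cells inside a tumour. Mice carried MC38 tumours, a mouse colon adenocarcinoma line given intradermally, and cells were sorted 7 days later. For each of the 2 cell types there were 6 WT mice (C57BL/6J or C57BL/6N), 6 muMt-/- mice (C57BL/6J) and 6 further muMt-/- mice that had received a slow-release GABA pellet under the skin the day before the tumour cells. The muMt-/- genotype leaves mice without mature B cells. For the WT group and the first muMt-/- group the labels give no treatment, whereas the paper describes a placebo pellet, and they are called placebo-treated here. The study used mice of both sexes aged 2 to 5 months and gives neither for single libraries. Tumour-associated macrophages (TAMs) were sorted as CD45+CD11b+F4/80high and T cells as CD45+TCRbeta+CD8+, with 100 cells per library and 6 libraries per group.

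Reverse transcription started from a barcoded primer with 14 T bases, so that each counted molecule stands for 1 captured RNA, read near its poly-A tail. Molecule counts of different genes also depend on how well each RNA is captured. The 18 TAM libraries held 3663618 molecules and the 18 CD8+ T cell libraries 1154683. TAM libraries ranged from 100254 to 304100 molecules and CD8+ T cell libraries from 22896 to 98015. A gene without any molecule could still have had up to 0.0819 molecules per 100000 in TAMs and 0.260 in CD8+ T cells, which is the limit that 3 counts of the total set and covers counting error only.

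Of the 34 members, 18 had at least 1 molecule and 16 had none in any of the 36 libraries. Among all genes of the table, 37.1% had none, against 47.1% of the members. The 18 members with any molecule split into 7 with 1 to 3 molecules in all and 11 with more. In TAMs 17 of the 34 members had a molecule and in CD8+ T cells 13, where 14986 and 13109 of the 24781 genes did. When at least 2 molecules in 1 library were asked for, 12 members remained. The most molecules were counted for Gabarap, Slc6a6 and Aldh9a1, and the GABA-A subunits, the plasma membrane GABA transporters and the GABA transaminase Abat were almost or wholly without any.

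**Figure D1:**
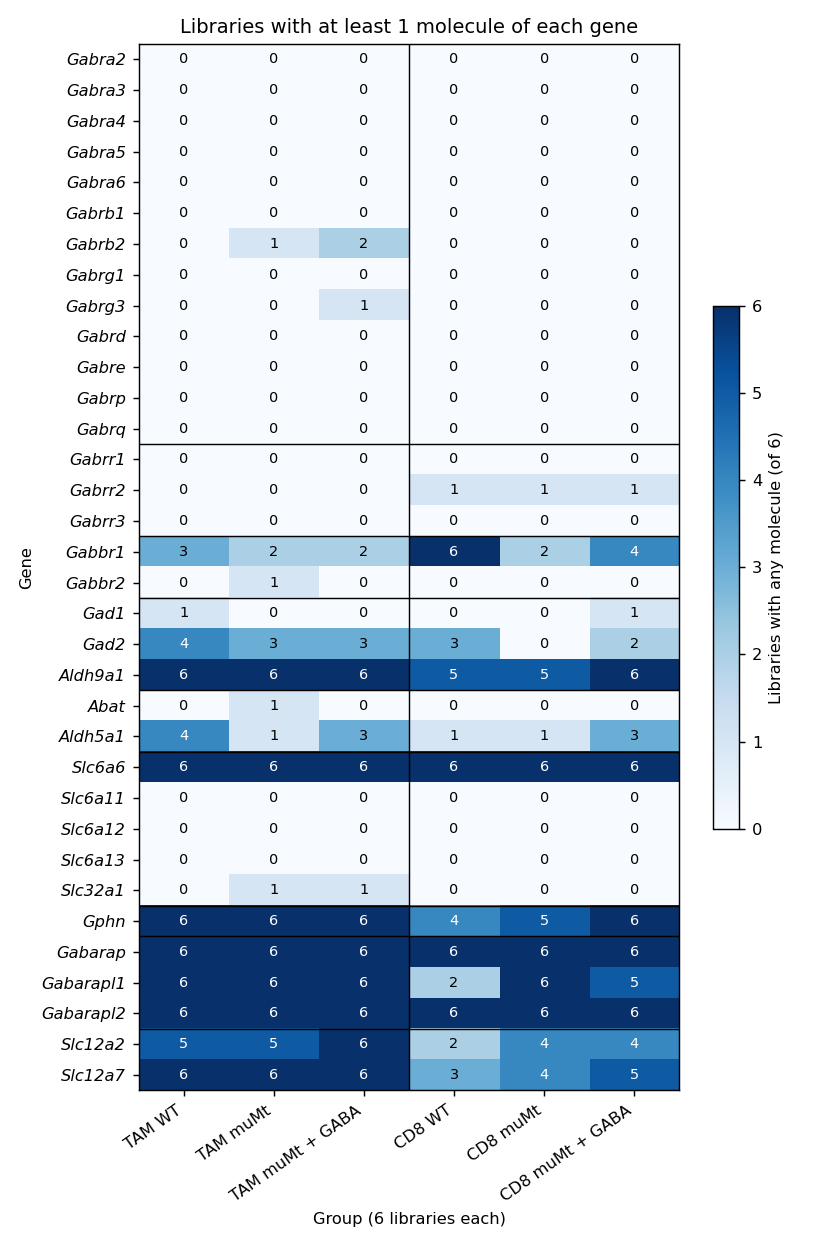
Number of libraries, of 6 in each group, with at least 1 molecule of each of the 34 members, shown as a number and as a shade for the 3 TAM groups (left) and the 3 CD8+ T cell groups (right). The 16 members at 0 in every group include 11 of 13 GABA-A subunits, and Slc6a6, Gabarap and Gabarapl2 had molecules in all 36 libraries.

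GABA-A subunits line the chloride channel of the receptor and, with their neighbours, form the GABA binding site. Of the 13 members, 11 had no molecule in any library: Gabra2, Gabra3, Gabra4, Gabra5, Gabra6, Gabrb1, Gabrg1, Gabrd, Gabre, Gabrp and Gabrq. The beta subunit Gabrb2 had 3 molecules, 1 each in replicate 1 of the placebo-treated muMt-/- TAMs and in replicates 1 and 3 of the GABA-treated muMt-/- TAMs. The gamma subunit Gabrg3 had 1 molecule, in replicate 3 of the GABA-treated TAMs. All 4 molecules of the subunits thus lay in TAMs of muMt-/- mice, and 0 lay in CD8+ T cells. Both had too few molecules for the main test. When all genes with any molecule were tested with edgeR, neither passed in GABA-treated muMt-/- against WT TAMs. Gabrb2 had an unadjusted p = 0.0752 (adjusted p = 0.707) and Gabrg3 an unadjusted p = 0.208 (adjusted p = 0.719).

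The rho subunits form GABA-gated chloride channels of their own, best known from the retina. Gabrr1 and Gabrr3 had no molecule. Gabrr2 had 3, all in CD8+ T cells, with 1 in replicate 6 of each of the 3 groups. It therefore did not set the GABA-treated mice apart from the others.

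GABA-B receptors pair the GABA-binding subunit Gabbr1 with Gabbr2, which couples to the G protein. Gabbr1 had 25 molecules in 19 libraries, and Gabbr2 had 1, in replicate 5 of the placebo-treated muMt-/- TAMs. In TAMs, Gabbr1 had 6 molecules in 3 WT libraries, 2 molecules in 2 placebo-treated muMt-/- libraries and 2 molecules in 2 GABA-treated muMt-/- libraries. In CD8+ T cells it had 9 molecules in 6 of 6 WT libraries, 2 molecules in 2 placebo-treated muMt-/- libraries and 4 molecules in 4 GABA-treated muMt-/- libraries. In normalized molecules, counts divided by a scaling factor for the depth of the library, the WT libraries lay at 1.03, 2.02 and 3.43 (lowest, median and highest), the highest placebo-treated muMt-/- library at 0.818 and the highest GABA-treated one at 0.914. The 6 WT libraries were above all 12 others, in the CD8+ group with the lowest depth. How many other genes had such an order was not counted. In the same comparisons 0% of the genes that reached the filter were called, which does not measure this. Of these WT libraries 4 had 1 molecule, as many as each muMt-/- library with any, so that among these the order came from the scaling factors. The mean of Gabbr1 over the CD8+ T cells was 0.939, just under the minimum of 1 for a test. When all genes with any molecule were tested, the log2 fold change of Gabbr1 between placebo-treated muMt-/- and WT CD8+ T cells was -2.27 (95% interval -4.14 to -0.40, unadjusted p = 0.0175, adjusted p = 0.608, lower in 6 of 6 libraries). Between GABA-treated muMt-/- and WT cells it was -1.66 (95% interval -3.34 to 0.0208, unadjusted p = 0.0529, adjusted p = 0.698), and for the GABA pellet within muMt-/- mice 0.61 (95% interval -1.44 to 2.65, adjusted p = 0.974). None passed, in comparisons where that test called 72, 64 and 11 of 13109 genes.

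The glutamate decarboxylases make GABA from glutamate. Gad1 had 2 molecules, 1 in replicate 1 of the WT TAMs and 1 in replicate 1 of the GABA-treated CD8+ T cells. Gad2 had 18 molecules in 15 libraries. In TAMs these were 5 in 4 WT libraries, 4 in 3 placebo-treated muMt-/- libraries and 4 in 3 GABA-treated muMt-/- libraries, so that libraries with and without a molecule were found in every group. The CD8+ T cells had 3 molecules of Gad2 in 3 WT libraries, 0 in the placebo-treated muMt-/- libraries and 2 in 2 GABA-treated ones, or 1.14, 0 and 0.410 per 100000 molecules, where 0 allows up to 0.743. When all genes with any molecule were tested, placebo-treated muMt-/- against WT gave Gad2 an unadjusted p = 0.0222 and an adjusted p = 0.627. At a mean of 0.776 normalized molecules, Gad2 was the highest of the TAM members left untested.

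Abat, the transaminase that begins GABA breakdown, had 1 molecule, in replicate 1 of the placebo-treated muMt-/- TAMs. Aldh5a1, the succinic semialdehyde dehydrogenase that ends it, had 15 molecules in 13 libraries. In TAMs these were 5 in 4 WT libraries, 1 in 1 placebo-treated muMt-/- library and 4 in 3 GABA-treated muMt-/- libraries. Aldh5a1 in CD8+ T cells had 1 molecule in WT mice, 1 in placebo-treated and 3 in GABA-treated muMt-/- mice. Most libraries of every CD8+ T cell group but the last had none.

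Slc6a11, Slc6a12 and Slc6a13, which take up GABA across the plasma membrane (Slc6a12 carries betaine as well), had no molecule. Slc32a1, which loads GABA and glycine into synaptic vesicles, had 3 molecules in TAMs, 1 in replicate 2 of the placebo-treated muMt-/- mice and 2 in replicate 1 of the GABA-treated ones. It had 0 in CD8+ T cells. Slc6a6, the taurine transporter, which carries GABA at low affinity, was therefore the transporter of the group with enough molecules for the main test.

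In the mouse genome (GRCm38, the build also called mm10) several members without any molecule lie in clusters. Gabrg1, Gabra2, Gabra4 and Gabrb1 are neighbours on chromosome 5, from 70751047 to 72149037, and 4 of 4 had no molecule. On chromosome X, Gabre, Gabra3 and Gabrq were likewise at 0, 3 of 3. Elsewhere members at 0 share a chromosome with related members that had molecules, Gabra6 with Gabrb2 (3 molecules) on 11, Gabra5 with Gabrg3 (1) on 7 and Gabrr1 with Gabrr2 (3) on 4. On chromosome 6 the 3 transporters at 0, Slc6a11, Slc6a12 and Slc6a13, share a chromosome with 2 counted members, Slc6a6 (91684053 to 91759066, plus strand) and Gabarapl1 (129533160 to 129542346, plus strand). Gabarap lies on chromosome 11 (69991143 to 69994951, plus strand). Exons of Slc6a6, Gphn, Gabarapl1, Aldh5a1 and Slc32a1 overlap exons of a gene on the opposite strand, and whether molecules were counted by strand is not stated.

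The GABA pellet was compared with placebo in muMt-/- TAMs to learn whether GABA itself changes the genes that sense and handle it. Among the 8 members with enough molecules for a test, 0 changed at an adjusted p under 0.05, where 0.0211% of all 9469 genes tested were called (edgeR quasi-likelihood test with Benjamini-Hochberg adjustment). Those 8 are 23.5% of the members, against 38.2% of all genes. The member with the lowest p was Slc6a6, with values that ran lower with GABA, and Gabarap, measured most precisely of the others, had nearly equal medians. At an unadjusted p under 0.05 there were 0 members and 801 genes (8.46%). There was 1 member with DESeq2 size factors, a robust fit or scaling on well counted genes, and without placebo replicate 5 or GABA replicate 2 or 5. In these fits 753 to 973 of 9469 genes were under 0.05 unadjusted. With filterByExpr there was 1 of 3 members, beside 469 of 3853 genes. DESeq2 called 60 genes and gave an adjusted p to 2 of the 8 members, Gabarap and Slc6a6, neither of which passed. By DESeq2 1 member and 580 genes were under 0.05 unadjusted. The 2 genes that edgeR called became 5 without placebo replicate 2, 12 without placebo replicate 5, 35 without GABA replicate 1 and 5 without GABA replicate 2. The log2 fold changes of the 8 ran from -0.46 to 0.25 with 7 below 0 and a median of -0.26, beside a median of 0.06 over all genes tested. Several moved with single libraries: when 1 was left out, Slc12a7 ran from -0.47 to -0.0058, Gphn from -0.54 to -0.0129, Gabarapl1 from 0.0451 to 0.66, Gabarapl2 from -0.33 to -0.0341, Slc12a2 from -0.74 to -0.25 and Aldh9a1 from -0.37 to -0.16. Fewer cells that express a gene and less of its RNA per cell cannot be told apart in these libraries.

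Gephyrin, the product of Gphn, anchors GABA-A and glycine receptors at synapses and also makes the molybdenum cofactor in many tissues. In TAMs it lay at 3.77, 5.58 and 8.53 normalized molecules in WT mice (lowest, median and highest of 6 libraries), at 2.77, 6.84 and 13.9 in placebo-treated muMt-/- mice, and at 0.831, 6.51 and 14.6 in GABA-treated muMt-/- mice. The 3 groups overlapped, and the GABA-treated libraries held both the lowest and the highest value. The log2 fold change with GABA was -0.25 (SE 0.40, adjusted p = 0.908), with 3 of 6 GABA-treated libraries above the placebo median.

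Gabarap, Gabarapl1 and Gabarapl2 belong to the ubiquitin-like Atg8 family, which serves autophagosomes and the traffic of receptors to the membrane, GABA-A receptors among them. Gabarap in TAMs lay at 99.8, 102 and 104 normalized molecules in WT mice, at 85.1, 105 and 124 in placebo-treated muMt-/- mice and at 69.0, 99.6 and 128 in GABA-treated ones. The medians lay close together while the spread was narrow in WT mice (102 ± 1.60, mean and SD, n = 6) and wider in the others (106 ± 14.2 and 99.7 ± 23.7). With GABA the log2 fold change was -0.06 (SE 0.16, 95% interval -0.37 to 0.26, adjusted p = 0.959), with 3 of 6 libraries above the placebo median. Its sign turned when replicate 1 of the GABA-treated TAMs was left out (0.0328).

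Gabarapl1 in TAMs lay at 1.45, 5.18 and 6.54 normalized molecules in WT mice, at 1.24, 5.93 and 15.3 in placebo-treated muMt-/- mice and at 5.31, 7.16 and 8.31 in GABA-treated ones. It was the member with a positive fold change, with 5 of 6 GABA-treated libraries above the placebo median, yet 1 placebo library stood above all of them (log2 fold change 0.25, SE 0.37, adjusted p = 0.906). Gabarapl2 lay at 4.36, 7.16 and 11.1 in WT mice, at 3.73, 7.17 and 12.4 in placebo-treated muMt-/- mice and at 3.98, 6.44 and 8.24 in GABA-treated ones. All 6 GABA-treated libraries fell inside the placebo range, 2 of 6 above its median (-0.19, SE 0.34, adjusted p = 0.922).

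Aldh9a1 oxidizes aminobutyraldehyde, the intermediate of the putrescine route, to GABA. In TAMs it lay at 6.46, 12.6 and 18.9 normalized molecules in WT mice, at 8.30, 12.6 and 16.7 in placebo-treated muMt-/- mice and at 5.08, 10.6 and 12.5 in GABA-treated ones. None of the 6 GABA-treated libraries reached the placebo median, and 2 lay below every placebo library. The log2 fold change was -0.27 (SE 0.28, 95% interval -0.83 to 0.29, adjusted p = 0.837), so that the difference was within the spread.

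Slc6a6 in TAMs lay at 75.8, 88.3 and 98.1 normalized molecules in WT mice, at 78.3, 102 and 124 in placebo-treated muMt-/- mice and at 63.7, 78.6 and 101 in GABA-treated ones. The means with SD were 88.3 ± 8.99, 102 ± 16.6 and 79.6 ± 13.3, each from 6 libraries. GABA-treated values were the lowest of the 3 groups on the median: 0 of 6 exceeded the placebo median and 3 lay below every placebo library, while the ranges overlapped. The log2 fold change with GABA was -0.30 (SE 0.15, 95% interval -0.61 to 0.00, unadjusted p = 0.0529, adjusted p = 0.600). By DESeq2 the unadjusted p was 0.0284 and the adjusted p 0.176, the lowest adjusted p over all settings tried, which ran up to 0.783. The result did not pass the test under any of them.

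Cation-chloride cotransporters set the gradient against which GABA-A channels work, Slc12a2 by bringing chloride in with sodium and potassium and Slc12a7 by letting it out with potassium. Slc12a2 was the lowest TAM member tested, at a mean of 1.30, and lay at 0, 0.758 and 2.56 normalized molecules in WT mice, at 0, 1.71 and 3.11 in placebo-treated muMt-/- mice and at 0.721, 0.961 and 2.66 in GABA-treated ones. These values come from 8, 8 and 7 molecules, and the interval of the log2 fold change of -0.46 was wide (SE 0.70, 95% interval -1.88 to 0.96, adjusted p = 0.907, 5 of 6 GABA-treated libraries not above the placebo median). Slc12a7 lay at 2.18, 6.10 and 10.1 in WT mice, at 1.55, 6.88 and 16.7 in placebo-treated muMt-/- mice and at 4.16, 6.07 and 9.06 in GABA-treated ones. GABA-treated values sat inside the placebo range, 2 of 6 above its median (-0.30, SE 0.38, adjusted p = 0.882).

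**Figure D2:**
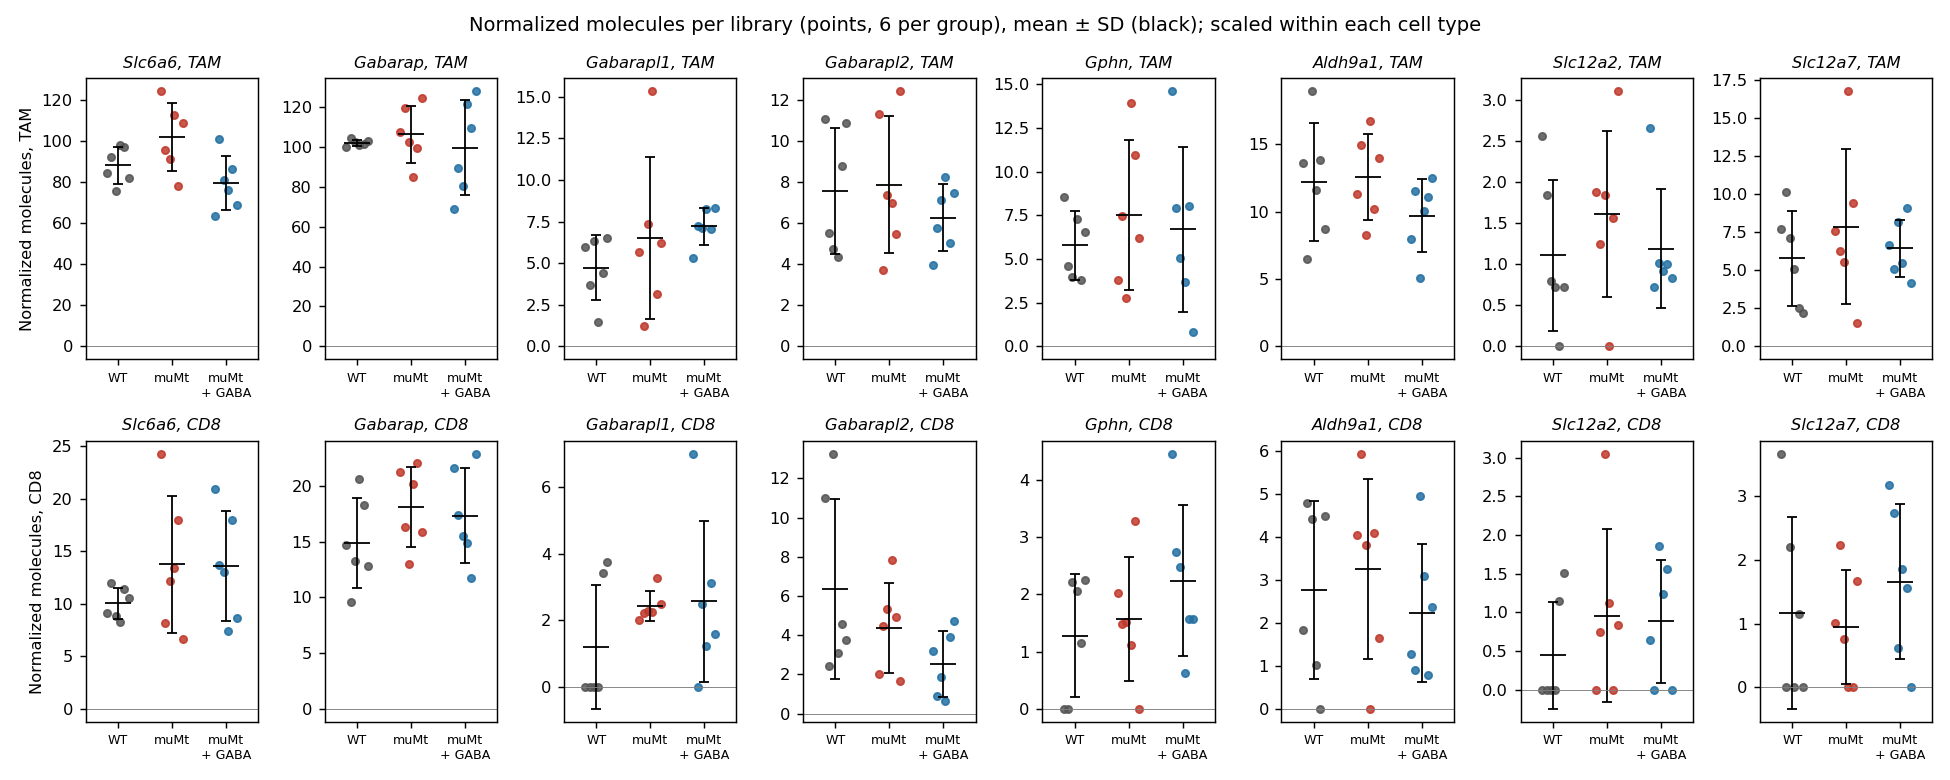
Normalized molecules of the 8 members tested in TAMs, 1 point per library with mean and SD of 6 libraries, in TAMs (upper panels) and CD8+ T cells (lower panels, scaled on their own). Groups overlap in every panel, and Slc6a6 in TAMs has 0 of 6 GABA-treated libraries above the placebo median.

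In CD8+ T cells of muMt-/- mice the same comparison of pellet and placebo had 7 members to test, 20.6% of the group against 26.9% of all genes, since Slc12a2 fell short there (mean 0.760). Slc6a6 and Gabarap had nearly the same level with and without GABA, and the members with few molecules had wide intervals. Of the 7, 0 changed at an adjusted p under 0.05, and 0% of 6663 genes were called (edgeR). At an unadjusted p under 0.05 there were 0 members and 247 genes (3.71%), and by DESeq2 0 members, adjusted or not. Without placebo replicate 6 or GABA replicate 2, edgeR called 1 gene. The log2 fold changes ran from -0.71 to 0.71, 4 above and 3 below 0, with a median of 0.06 beside 0.03 over all genes. When 1 library was left out, Aldh9a1 ran from -0.86 to -0.20, Gphn from 0.18 to 0.87, Slc12a7 from 0.40 to 1.16 and Gabarapl2 from -0.97 to -0.50.

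Gphn in CD8+ T cells lay at 0, 1.60 and 2.25 normalized molecules in WT mice, at 0, 1.51 and 3.27 in placebo-treated muMt-/- mice and at 0.620, 2.03 and 4.45 in GABA-treated ones. The GABA-treated group had 5 of 6 libraries above the placebo median (log2 fold change 0.52, SE 0.57, adjusted p = 0.999), on 19 molecules against 11. Gabarap lay at 9.62, 13.97 and 20.6 in WT mice, at 13.0, 18.3 and 22.1 in placebo-treated muMt-/- mice and at 11.7, 16.4 and 22.9 in GABA-treated ones. The ranges of the muMt-/- groups nearly coincided, and the log2 fold change was 0.00 (SE 0.26, 95% interval -0.52 to 0.52, 2 of 6 libraries above the placebo median).

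Gabarapl1 lay at 0, 0 and 3.76 normalized molecules in WT mice, at 2.02, 2.26 and 3.27 in placebo-treated muMt-/- mice and at 0, 2.03 and 6.99 in GABA-treated ones. GABA-treated libraries spread on both sides of the placebo group, 3 of 6 below all of it (log2 fold change 0.17, SE 0.56), and the sign turned when replicate 1 of the GABA-treated group was left out (-0.42). Gabarapl2 lay at 2.40, 4.16 and 13.3 in WT mice, at 1.67, 4.68 and 7.85 in placebo-treated muMt-/- mice and at 0.620, 2.52 and 4.73 in GABA-treated ones. It had the lowest p of the CD8+ members, with 1 of 6 GABA-treated libraries above the placebo median (log2 fold change -0.71, SE 0.47, 95% interval -1.67 to 0.25, unadjusted p = 0.141, adjusted p = 0.999).

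Aldh9a1 lay at 0, 3.13 and 4.81 normalized molecules in WT CD8+ T cells, at 0, 3.93 and 5.94 in placebo-treated muMt-/- cells and at 0.781, 1.82 and 4.96 in GABA-treated ones. All GABA-treated libraries had a molecule and 1 of 6 exceeded the placebo median (log2 fold change -0.47, SE 0.53, adjusted p = 0.999). Slc12a7, the lowest CD8+ member tested at a mean of 1.26, lay at 0, 0.572 and 3.67 in WT mice, at 0, 0.887 and 2.23 in placebo-treated muMt-/- mice and at 0, 1.71 and 3.18 in GABA-treated ones. Libraries without a molecule occurred in each group, and 4 of 6 GABA-treated libraries exceeded the placebo median (0.71, SE 0.72, 95% interval -0.74 to 2.17). Slc12a2, untested here, had 3, 7 and 8 molecules in the 3 groups.

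Slc6a6 in CD8+ T cells lay at 8.25, 9.84 and 12.0 normalized molecules in WT mice, at 6.66, 12.8 and 24.3 in placebo-treated muMt-/- mice and at 7.43, 13.4 and 21.0 in GABA-treated ones. WT libraries stayed close together, and both muMt-/- groups reached lower and higher (log2 fold change with GABA 0.06, SE 0.28, 95% interval -0.51 to 0.63, adjusted p = 0.999, 4 of 6 libraries above the placebo median). That sign turned with other settings (-0.0154 with the filterByExpr filter and -0.0210 with scaling on well counted genes). Macrophage markers were present in the same libraries: the 14 marker genes summed to 0, 19.8 and 96.6 molecules per 100000 in WT CD8+ T cells, 48.1, 85.5 and 405 in placebo-treated muMt-/- cells and 14.5, 112 and 265 in GABA-treated ones. The median marker stood at 1.86%, 10.6% and 14.04% of its level in the TAMs of the same group. The most abundant were Cd14, a lipopolysaccharide co-receptor, with 19 molecules in WT and 112 in placebo-treated muMt-/- cells, and the integrin Itgam with 92 in GABA-treated cells, while Adgre1, Mertk and Mrc1 were at 0 in WT cells. Slc6a6 in CD8+ T cells reached 36.8%, 46.1% and 54.7% of its TAM level in the 3 groups, and the part of macrophage RNA in it was not tested.

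**Figure D3:**
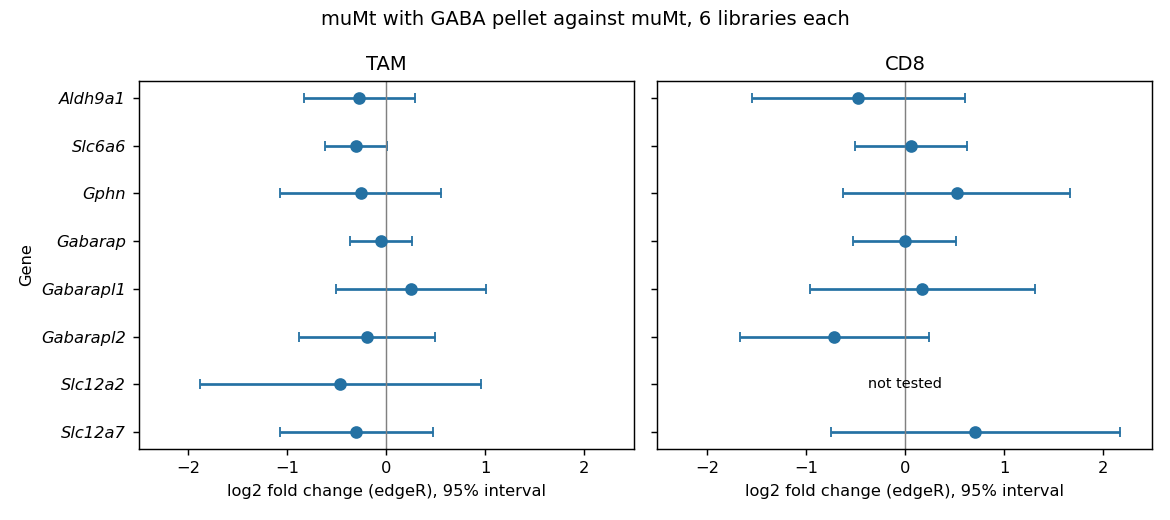
Log2 fold change of GABA pellet against placebo in muMt-/- mice for each member tested, with 95% intervals, in TAMs (8 members) and CD8+ T cells (7 members), from 6 libraries per group. Every interval includes 0, and the sign of Gabarap in both cell types and of Slc6a6 and Gabarapl1 in CD8+ T cells turned under some setting or without 1 library.

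Whether the pellet acted differently in the 2 cell types was tested as the difference of its effects, with 36 libraries. The labels do not say whether a TAM and a CD8+ library came from the same mouse. This test and that of TAMs against CD8+ T cells took all 36 as independent. For the 8 members tested, the difference of effects ran from -1.06 to 0.52 in log2 units, and every interval included 0. None of the 8 passed (lowest adjusted p = 0.994), and 0% of 8477 genes were called by edgeR. At an unadjusted p under 0.05 there were 0 members and 384 genes (4.53%), and DESeq2 called 0 of both. Without CD8+ placebo replicate 6 edgeR called 1 gene, and without CD8+ GABA replicate 1 it called 2. For Slc6a6, with the most TAM molecules of the transporters, the difference was -0.39 (SE 0.31, 95% interval -1.02 to 0.23).

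The comparison of placebo-treated muMt-/- with WT mice shows the members without mature B cells. In TAMs 0 of 8 members changed, where 2.05% of 9469 genes were called by edgeR (at an unadjusted p under 0.05, 0 members and 14.9% of genes; by DESeq2 253 genes and 0 members, with no adjusted p for Slc12a2). The 194 genes of the first count became 86 without WT replicate 1, 119 without WT replicate 6 and 69 without muMt-/- replicate 4. The log2 fold changes ran from -0.06 to 0.55, 6 above 0 and 2 below. Slc12a7 had the lowest p (0.48, SE 0.38, adjusted p = 0.614, 4 of 6 libraries above the WT median). Slc6a6 had 5 of 6 libraries above the WT median and 3 above every WT library (0.16, SE 0.15, adjusted p = 0.680).

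In CD8+ T cells 0 of 7 members changed between placebo-treated muMt-/- and WT mice, with 0% of 6663 genes called by edgeR (at an unadjusted p under 0.05, 0 members and 6.17% of genes; by DESeq2 0 of both). Without WT replicate 5 edgeR called 13 genes. Without muMt-/- replicate 6 there was 1 member under 0.05 unadjusted, beside 443 of 6663 genes. Without the filter there were 2 of 13 members, beside 853 of 13109 genes. The log2 fold changes ran from -0.28 to 0.59, 6 above 0 and 1 below. Slc6a6 had the lowest p (0.53, SE 0.32, adjusted p = 0.864), with 4 libraries above every WT library and 2 below. Macrophage markers ran higher in the same comparison, with a median log2 fold change of 2.23 and 9 of 11 tested at an unadjusted p under 0.05, 0 of them called, and their part in Slc6a6 was not tested. The median over all genes was 0.15 in this comparison and 0.06 when the scaling used well counted genes. Relative to these medians, Slc6a6 stood at 0.37 and 0.38, Gabarapl1 at 0.44 and 0.46 and Aldh9a1 at 0.30 and 0.31. Gabarap stood at 0.18 and 0.18, Slc12a7 at 0.07 and 0.07, Gphn at 0.0009 and 0.02, and Gabarapl2 at -0.44 and -0.46.

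GABA-treated muMt-/- mice were also set against WT mice. This comparison shares its WT libraries with placebo-treated muMt-/- against WT and its GABA-treated libraries with the pellet comparison. In TAMs 0 of 8 members changed and 0.0739% of genes were called by edgeR (at an unadjusted p under 0.05, 0 members and 7.02% of genes; by DESeq2 14 genes and neither Gabarap nor Slc6a6, the 2 members that it gave an adjusted p). The 7 genes behind that share became 2 or 3 without WT replicate 1, 2, 3, 4 or 6 or GABA replicate 1, 2 or 3. Gabarapl1 came nearest, with 6 of 6 GABA-treated libraries above the WT median and 5 above every WT library (log2 fold change 0.62, SE 0.36, unadjusted p = 0.0893, adjusted p = 0.765). Its value without the pellet, in placebo-treated muMt-/- against WT TAMs, was 0.37 (SE 0.39). For Slc6a6 the values were -0.14 (SE 0.15) with and 0.16 without the pellet.

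In CD8+ T cells of GABA-treated muMt-/- against WT mice 0 of 7 members changed and 0% of genes were called by edgeR. At an unadjusted p under 0.05 there were 0 members and 6.89% of genes. By DESeq2 0 members and 1 gene were called, and 1 member and 222 genes were under 0.05 unadjusted. Without WT replicate 6 or GABA replicate 1 or 3, edgeR called 1 gene. The 0 members under 0.05 unadjusted became 1 with DESeq2 size factors, a robust fit, scaling on well counted genes or only the groups compared. There was 1 without WT replicate 2, 4 or 6 or GABA replicate 1, 4 or 5, and 2 without GABA replicate 6. Over these fits 314 to 594 of 6663 genes were under 0.05 unadjusted. Gabarapl2 had the lowest p, with 1 of 6 GABA-treated libraries above the WT median and 3 below every WT library (log2 fold change -0.99, SE 0.49, 95% interval -1.99 to 0.01, unadjusted p = 0.0518, adjusted p = 0.725). Slc6a6 had 4 libraries above every WT library and 1 below (0.59, SE 0.31, unadjusted p = 0.0669, adjusted p = 0.742), beside macrophage markers with a median of 2.35 and 9 of 11 tested at an unadjusted p under 0.05, 0 of them called. The median over all genes was 0.21 here and 0.04 with scaling on well counted genes.

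Between TAMs and CD8+ T cells some of these genes differed. Over the 3 groups, 4 of the 8 members tested passed between the cell types, where 39.1% of 8477 genes were called by edgeR (at an unadjusted p under 0.05, 5 members and 46% of genes; by DESeq2 4 members and 3196 genes). Slc6a6, Gabarap and Slc12a7 were higher in TAMs and Gabarapl2 was lower, with log2 fold changes of 1.38 (SE 0.13, adjusted p = 3.6e-13), 1.12 (SE 0.12, adjusted p = 5.43e-12), 0.99 (SE 0.36, adjusted p = 0.0226) and -0.61 (SE 0.23, adjusted p = 0.0316). The scaling mattered to such values, since the median over all genes was 0.19 and with scaling on well counted genes -0.12, with 2280 genes higher (26.9%) and 1038 lower (12.2%) in the first case and 1498 and 1884 in the second. Relative to these medians, Slc6a6 stood at 1.19 and 1.18, Gabarap at 0.93 and 0.92, Slc12a7 at 0.80 and 0.80, and Gabarapl2 at -0.80 and -0.81.

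Slc6a6 lay at 31.6, 47.2 and 65.8 molecules per 100000 in the 18 TAM libraries (lowest, median and highest) and at 12.3, 19.9 and 37.8 in the 18 CD8+ T cell libraries, and 16 TAM libraries were above every CD8+ library. Gabarap lay at 34.2, 55.0 and 68.3 in TAMs and at 17.5, 28.8 and 41.1 in CD8+ T cells, with 17 TAM libraries above every CD8+ library. For both genes the 18 TAM libraries exceeded the CD8+ median, and the calls held in every setting tried.

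Slc12a7 lay at 0.803, 3.27 and 8.24 molecules per 100000 in TAMs and at 0, 1.75 and 6.17 in CD8+ T cells, with 15 of 18 TAM libraries above the CD8+ median. Its call was lost with scaling on well counted genes (0.68, adjusted p = 0.145), in WT libraries alone (1.19, adjusted p = 0.248) and without replicate 3 (0.88), 4 (0.68) or 5 (0.92), over a range of adjusted p from 0.0112 to 0.248. Gabarapl2 lay at 1.94, 3.60 and 6.43 in TAMs and at 1.11, 6.87 and 23.7 in CD8+ T cells, and 18 of 18 TAM libraries were below the CD8+ median. Its call was lost without the filter (-0.55), in WT libraries alone (-0.93) and without replicate 2 (-0.61), 3 (-0.60) or 5 (-0.53), over a range of adjusted p from 0.00119 to 0.125.

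The other 4 members did not pass between the cell types. Their log2 fold changes were 0.55 for Aldh9a1 (SE 0.24, adjusted p = 0.0676), 0.40 for Gphn (SE 0.32, adjusted p = 0.342), -0.88 for Slc12a2 (SE 0.47, adjusted p = 0.137) and -0.07 for Gabarapl1 (SE 0.31, adjusted p = 0.882). TAM libraries above the CD8+ median numbered 13, 10, 3 and 3 of 18. Slc12a2 passed with scaling on well counted genes (-1.18, adjusted p = 0.0444, in a range from 0.0347 to 0.693) and without replicate 1 (-1.32), Aldh9a1 passed without the filter (0.61, adjusted p = 0.0468, in a range from 0.0467 to 0.491) and without replicate 3 (0.67), and the sign of Gabarapl1 turned in WT libraries alone (0.0430). When all genes with any molecule were tested, 3787 of 15593 genes and 6 of 18 members passed. Among the 6 were Gabbr1 (-1.62, adjusted p = 0.0392) and Gabrr2 (adjusted p = 0.0249), the latter on 3 molecules with TAMs at 0.

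Genes around the members were read from 7 lists of 94 genes. For the GABA pellet, 0 genes of any list passed by edgeR in either cell type. Of the glutamate and glutamine list, which supplies the substrate of the decarboxylases, 14 of 20 genes were tested in TAMs and 2 had an unadjusted p under 0.05, the asparagine synthetase Asns (log2 fold change 1.52, unadjusted p = 0.000626, adjusted p = 0.195) and the alanine aminotransferase Gpt2 (1.92, unadjusted p = 0.00402, adjusted p = 0.302). In TAMs the GABA-B auxiliary and G protein list had 1 such gene of 6 tested, the receptor's auxiliary subunit Kctd12 (-0.41, unadjusted p = 0.0300, adjusted p = 0.539), and the Atg8 conjugation list 1 of 14, the protease Atg4a (1.54, unadjusted p = 0.0122, adjusted p = 0.408). The putrescine list (9 tested), the succinate list (8), the receptor trafficking list (7) and the chloride cotransporter and WNK kinase list (5) had 0. Of all genes tested in TAMs, 8.46% had an unadjusted p under 0.05. Among the genes of the 7 lists tested in CD8+ T cells 0 did, beside 3.71% of all genes.

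Between TAMs and CD8+ T cells genes of each list were called, where 39.1% of all genes were. On the glutamate list 4 genes were higher in TAMs and 4 lower of 13 tested, with the cystine-glutamate exchanger Slc7a11 (log2 fold change 1.78, higher than the CD8+ median in 18 of 18 TAM libraries, adjusted p = 7.59e-05) and the glutamine synthetase Glul (1.51) at one end. At the other were the neutral amino acid transporters Slc1a5 (-1.89, lower in 18 of 18, adjusted p = 7.8e-12) and Slc7a5 (-1.75). On the putrescine list 3 were higher and 3 lower of 9, among them the aldehyde dehydrogenase Aldh2 (1.65) and the spermine oxidase Smox (1.60) against the spermine synthase Sms (-1.43) and the ornithine decarboxylase Odc1 (-1.16), which makes putrescine.

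On the succinate list 2 of 8 were higher, the succinic semialdehyde reductase Akr7a5 (1.46) and the succinate dehydrogenase subunit Sdhc (0.47). Both calls were lost with scaling on well counted genes. Akr7a5 was then at 1.17 (SE 0.52, adjusted p = 0.0660) and Sdhc at 0.14 (SE 0.18, adjusted p = 0.560). With that scaling the succinate-CoA ligase subunit Suclg1 was called instead, lower in TAMs (-0.71, adjusted p = 0.00149). On the GABA-B list 3 were higher and 1 lower of 6, Kctd12 (2.66) and the inhibitory G protein subunit Gnai2 (1.37) against its relative Gnai3 (-0.40). On the Atg8 list 3 were higher and 1 lower of 13, with the protease Atg4c (3.03) and the conjugation enzyme Atg7 (1.32) against the protease Atg4d (-1.04).

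On the chloride list 1 was higher and 2 were lower of 5, the transporter Slc12a9 (2.90) against Stk39 (-2.24) and Oxsr1 (-0.77), kinases that switch these cotransporters. On the trafficking list 1 of 8 was lower, Jakmip1, a microtubule-linked partner of the GABA-B receptor, with 0 molecules in all 18 TAM libraries and a median of 2.35 per 100000 in CD8+ T cells. The genes named on these lists other than Akr7a5, Sdhc and Suclg1 kept direction and call with scaling on well counted genes. The counts per list with it were 3 higher and 4 lower for glutamate, 3 and 4 for putrescine, 0 and 1 for succinate, 2 and 1 for GABA-B, 2 and 1 for Atg8, 1 and 2 for chloride and 0 and 1 for trafficking.

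The sorted cells were checked against marker genes. Of 14 macrophage markers 14 were higher in TAMs, and of 14 T cell markers 14 were lower. In TAMs Itgam (CD11b) averaged 99.9, 162 and 120 normalized molecules in WT, placebo-treated and GABA-treated muMt-/- mice, Adgre1 (F4/80) 54.2, 54.1 and 53.7, and Ptprc (CD45) 92.0, 105 and 89.5. In CD8+ T cells Ptprc averaged 64.7, 67.6 and 54.2, Cd8a 40.9, 36.9 and 34.7, and Cd8b1 48.0, 33.0 and 33.6. Between placebo-treated muMt-/- and WT TAMs 1 macrophage marker of 14 was called higher and 3 lower. An unadjusted p under 0.05 was found for 10 of the 14, beside 14.9% of all genes. Itgam rose (log2 fold change 0.66, adjusted p = 0.0277, with libraries at 133 to 197 against 73.3 to 145), while the lysozyme Lyz2 (-0.74, adjusted p = 0.0240) and the complement genes C1qb (-0.62, adjusted p = 0.0414) and C1qc (-0.57, adjusted p = 0.0483) fell. The most abundant macrophage marker in TAMs was Apoe, an apolipoprotein.

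Both gates ask for CD45, which nerve, epithelial, endothelial and fibroblast cells lack, and muMt-/- mice have no mature B cells. Genes on the marker lists of such cells were nonetheless counted, in small or uneven numbers. Which cells their RNA came from was not tested. Nerve and glia markers had 14, 6 and 15 molecules in the 3 TAM groups and 3, 6 and 5 in the 3 CD8+ groups, most of them Tubb3, with Snap25, Gfap and Sox10 at 0 in all 36 libraries. B cell markers had 15, 11 and 16 molecules in TAMs and 0, 3 and 6 in CD8+ T cells, led by Ebf1, Cd79b or Fcrla, with Cd79a, Pax5 and Blk at 0 throughout. T cell markers in TAMs had 42, 17 and 16 molecules, led by Thy1 or Cd3d, against 1385, 1819 and 2277 in CD8+ T cells, led by Thy1.

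Fibroblast markers, led by Col3a1, had 1728, 825 and 1290 molecules in TAMs and 113, 281 and 132 in CD8+ T cells. The TAM medians per 100000 molecules were in another order, at 40.3, 46.6 and 62.8, with WT replicate 6 at 534. Epithelial tumour markers had 67, 92 and 80 molecules in TAMs and 7, 5 and 24 in CD8+ T cells, nearly all Cdh1. Krt18, Krt19 and Cldn4 were at 0, and Epcam was at 0 in TAMs. Between placebo-treated muMt-/- and WT TAMs Cdh1 rose (log2 fold change 1.11, adjusted p = 0.0287), and the TAM medians of the list were 4.67, 8.01 and 5.75 per 100000. Endothelial markers, led by Pecam1, had 65, 25 and 25 in TAMs and 3, 6 and 8 in CD8+ T cells. Pecam1 alone had 35, 21 and 23 of those in TAMs. Tek was at 0 in all 36 libraries and Cldn5 in both muMt-/- TAM groups. The TAM medians of the list were 1.37, 2.79 and 2.39 per 100000, with WT replicate 1 at 21.9. Neutrophil markers had 98, 95 and 89 in TAMs (led by Csf3r) and 18, 35 and 29 in CD8+ T cells (S100a8 or Cxcr2). Dendritic cell markers had 11, 32 and 33 in TAMs (Clec9a or Ccr7) and 84, 101 and 122 in CD8+ T cells. Of the latter, Ccr7 alone had 79, 95 and 117, and Clec9a was at 0 there. Natural killer markers had 2, 3 and 5 in TAMs (Eomes or Klrb1c) and 21, 36 and 48 in CD8+ T cells (Eomes or Klre1). Ncr1 and Klra8 were at 0 in all 36 libraries. Whether these RNAs came from the sorted cells themselves was not tested. The part of the marker genes in the members' levels was not tested either.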

How the data were processed

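Counts of distinct molecules per gene were deposited by the authors, who mapped the reads to mm10 with STAR and counted molecular barcodes, and 36 libraries were read without further change. Genes with a mean above 1 normalized molecule (DESeq2 size factors, over the libraries of each fit) were tested with edgeR 4.0.16 (quasi-likelihood F-test, TMM, 1 coefficient per group, 18 libraries per fit, 36 for TAMs against CD8+ T cells and for the difference of pellet effects). Adjustment was by Benjamini-Hochberg over all genes tested, with a threshold of 0.05. DESeq2 1.42.0, R 4.3.3, Python 3.11.15, pandas 2.3.3, numpy 2.4.6 and matplotlib 3.10.9 were used. The main edgeR fit and the scaling on well counted genes were tried on simulated counts of genes that passed the filter. Fits without the filter and DESeq2 were not covered.

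The members and the lists were chosen with earlier results of these data known. All 34 members were named. From 7 pathway lists the rule named genes with an adjusted p under 0.05 within a cell type and, between cell types, the 2 largest folds each way per list. From 10 marker lists (macrophage, T cell, B cell, neutrophil, dendritic cell, natural killer cell, epithelial tumour cell, fibroblast, endothelium, nerve and glia) it named the sort markers and the most abundant gene. Pathway genes with an unadjusted p under 0.05, Suclg1, and markers called between TAM groups were named after their values were seen. The pathway lists cover glutamate and glutamine supply, the putrescine route to GABA, succinic semialdehyde and succinate, receptor trafficking and scaffold partners, GABA-B auxiliary subunits and G proteins, Atg8 conjugation, and chloride cotransporters with WNK kinases. Some genes of the marker and pathway lists were left out after the tests had been run and are not analysed here.

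Alternatives were edgeR with size factors from DESeq2, the Wald test of DESeq2, filterByExpr, no filter, a robust fit, only the groups compared, WT libraries only, the replicate number as a block, leaving out each library or replicate, and at least 2 molecules for detection. TMM from well counted genes was added after the data were seen. No 2 libraries of a group were found to be copies of each other. Positions are from GENCODE for GRCm38.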

Additional observations from a re-analysis of the deposited data

Results flagged for a closer look

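Among 104 groups of 6 libraries looked at, 13 had a library far from the others. Chance gives about 1 in 20 for normally distributed values, a rate that does not carry over to sparse or skewed counts such as some of these. The groups were those of each member tested and of the summed markers of each of 10 cell types, of which all but the macrophage markers were added after their values were seen. Slc12a2 in replicate 1 of the GABA-treated muMt-/- TAMs stood at 2.655 normalized molecules with the next library at 1.016, which is 2 molecules against 1.

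The other 12 are marker sums per 100000 molecules. The macrophage markers summed to 96.64 in replicate 5 of the WT CD8+ T cells, with the next library at 27.69. They summed to 404.6 in replicate 1 of the placebo-treated muMt-/- CD8+ T cells, with the next at 158.8, and the neutrophil markers of this library to 26.76, with the next at 9.092. Neutrophil markers also stood apart in replicate 6 of the WT CD8+ T cells (22.11, next 1.933) and in replicate 5 of the WT TAMs (16.44, next 7.122).

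In TAMs, fibroblast markers reached 533.8 in replicate 6 of the WT mice (next 55.57) and 261.6 in replicate 2 of the GABA-treated mice (next 81.18), and endothelial markers 21.86 in replicate 1 of the WT mice (next 1.644). B cell markers were at 3.427 in replicate 2 of the GABA-treated TAMs (next 1.096), and natural killer markers at 1.183 in replicate 5 of the placebo-treated muMt-/- TAMs, where the other 5 had none. In GABA-treated CD8+ T cells, natural killer markers were at 19.89 in replicate 2 (next 10.14) and epithelial markers at 17.34 in replicate 1 (next 3.15).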

How the results depend on the processing

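The count of members called stayed at 0 for each comparison within a cell type over 20 alternatives, 12 of which left out 1 library, and for the difference of pellet effects over 32. Detection of 18 members became 12 with at least 2 molecules in a library. Of 290 alternative fits of the 15 GABA fold changes, 274 kept direction and side of the threshold and 16 reversed. The reversals were in Gabarap in TAMs without 1 library (range -0.16 to 0.0328, positive without replicate 1 of the GABA group), Gabarap in CD8+ T cells without the filter (0.0063) and without 1 library (-0.11 to 0.0776, positive without 7 of the 12), Gabarapl1 in CD8+ T cells without 1 library (-0.42 to 0.39, negative without replicate 1 of the GABA group) and Slc6a6 in CD8+ T cells with filterByExpr (-0.0154), with TMM from well counted genes, an alternative chosen after seeing the data (-0.0210), and without 1 library (-0.12 to 0.25, negative without replicate 2 or 6 of the placebo or 1 or 5 of the GABA group). The cause was not tested.

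Counts of all genes called moved by over 1.5 times. In TAMs, GABA against placebo went from 2 to 60 with DESeq2, 51 without the filter, 4 with the block and 4 with the robust fit, and placebo-treated muMt-/- against WT from 194 to 295 with filterByExpr, 343 without the filter and 324 with only the groups compared. GABA against WT in TAMs went from 7 to 14 with DESeq2, 2 with filterByExpr, 63 without the filter, 4 with TMM from well counted genes and 3 with only the groups compared. The counts of 0 in CD8+ T cells became 11 (GABA against placebo), 72 (placebo against WT) and 64 (GABA against WT) without the filter and at most 2 with any other setting that kept all libraries, and 17 for the difference of pellet effects. The 3318 between cell types became 1661 with filterByExpr and 2034 in WT libraries only.

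Between TAMs and CD8+ T cells the 4 calls became 2 with filterByExpr, where 2 members were left to test, 2 in WT libraries only, which are fewer samples, and 2 to 5 without 1 replicate (2 without replicate 5). Without the filter there were 6. Gabarapl1 reversed there in WT libraries (0.0430) and without 1 replicate (-0.40 to 0.17, positive without 1, 5 or 6).

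With the replicate number as a block, the members called were 0 within both cell types and 4 between them. Pairs of libraries that share a number correlated above 0.1 in 5 of 18 cases in CD8+ T cells and 0 of 18 in TAMs.

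In GABA against placebo the 95% intervals reached from 0.31 to 1.42 log2 units either side in TAMs and from 0.52 to 1.46 in CD8+ T cells, so that smaller changes could have been missed. For members with few molecules, absence and low levels cannot be told apart, and counts of other transcripts at the same locus were not separated.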
